A study of Mus musculus with 4 samples.

Results

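Voltage-gated potassium (Kv) channel alpha subunits, the proteins that form the pore and sense voltage, were described here through 36 genes of the Kcna, Kcnb, Kcnc, Kcnd, Kcnf, Kcng, Kcnh, Kcnq, Kcns and Kcnv families. The genes were taken by symbol from a fixed list, and all 36 were found among the 25044 entries of the expression tables. The list made no use of their levels but was chosen with earlier results of these data known. Their transcripts were measured by RNA sequencing in brain tissue dissected from the parasubthalamic nucleus, a group of neurons in the posterior lateral hypothalamus that lies next to the subthalamic nucleus. Replicates 1 to 4, a library each, came from naive C57BL/6 mice that carried no named allele and had received no named agent, with age and sex not given, and no stressed mice were sequenced. The design therefore gives comparisons between genes within libraries, and of the libraries with each other. Since the labels tie no replicate to an animal of its own, p-values cover no more than how these samples spread, which may be technical. Sums over a family cover the listed genes.

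Kv alpha subunits assemble as tetramers, of one kind or mixed, around a potassium-selective pore, and the channel opens when the membrane is depolarised. Kcna, Kcnb, Kcnc and Kcnd channels shape the action potential, its repetition and its spread in axons and dendrites, while Kcnq and Kcnh channels act near the resting potential and curb repetitive firing. Kcnf, Kcng, Kcns and Kcnv subunits do not make working channels alone but join Kcnb subunits and alter their gating.

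The part of the pore that selects potassium is encoded by 3 codons that every member carried once in the context searched, and these stretches are shown because they are what joins the families. Each line gives 45 bases of coding sequence from GENCODE M21 transcripts (GRCm38), 5′ to 3′ on the gene's own strand, for the member with the highest mean level in each of 9 families, and the capitals mark the codons for glycine, tyrosine or phenylalanine, and glycine.
Kcnc1: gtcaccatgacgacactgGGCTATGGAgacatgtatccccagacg
Kcna6: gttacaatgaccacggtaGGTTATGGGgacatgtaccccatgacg
Kcnd2: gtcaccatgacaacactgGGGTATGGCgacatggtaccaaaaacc
Kcnh2: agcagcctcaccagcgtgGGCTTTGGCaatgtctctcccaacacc
Kcng4: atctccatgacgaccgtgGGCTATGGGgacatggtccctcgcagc
Kcns3: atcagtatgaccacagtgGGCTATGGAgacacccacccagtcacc
Kcnf1: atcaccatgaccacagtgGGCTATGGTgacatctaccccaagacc
Kcnv1: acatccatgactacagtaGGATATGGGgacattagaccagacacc
Kcnb2: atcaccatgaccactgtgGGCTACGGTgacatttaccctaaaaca

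The middle codon of the capitals encodes phenylalanine in the 8 Kcnh members and tyrosine in the other 28 members. The Kcnc1 stretch lies at chr7:46427961-46428005 on the plus strand, the Kcna6 stretch at chr6:126738629-126738673 on the minus strand, and the Kcnh2 stretch at chr5:24325537-24325581 on the minus strand. Against the Kcnc1 stretch, base by base, the Kcnc4 stretch was identical at 40 of 45 bases and that of Kcnc2 at 33. The Kcna stretches were identical to it at 31 to 34 bases, the Kcnd stretches at 33 to 37, and the Kcnh stretches at 22 to 26. Of the 36 genes, 10 carry their whole coding sequence in 1 exon, among them 7 of the 8 Kcna genes, and the Kcnd2 stretch above is interrupted by an intron.

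Levels were read as FPKM, fragments scaled to the length of the transcript and to the depth of the library, a scale on which genes of different length can be set side by side. Totals ran from 428612 to 442836 FPKM per library, and the spacing of low values implied about 19300000 to 20700000 fragments. Genes listed as markers of the labelled region were present in each library. Slc17a6, which encodes the main vesicular glutamate transporter of subcortical neurons, was at 65.3 to 90.3 FPKM. Tac1, the substance P precursor, was at 46.9 to 91.7 FPKM. As Slc17a6 is shared by subcortical neurons, its level does not by itself place the dissection. The libraries also differed in markers of adjoining tissue. The 6 thalamus markers summed to 298 FPKM in replicate 3, against 55.4 to 89.2 FPKM in the other libraries. The 6 markers of midbrain dopamine neurons summed to 689 FPKM in replicate 2, against 313 to 350 FPKM elsewhere, and the 5 medial hypothalamus markers to 175 FPKM there, against 8.73 to 28.8 FPKM elsewhere. The 5 spinal cord and hindbrain markers summed to 29.2 FPKM in replicate 1, against 6.09 to 12.7 FPKM elsewhere, where 3 of them were listed at 0.

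The Kv alpha subunits spanned more than 3 orders of magnitude on the FPKM scale, and the Kcnc genes led. Of the 36 members, 9 had a mean of 10 FPKM or more, 17 lay between 1 and 10 FPKM, 6 between 0.1 and 1 FPKM, and 4 below 0.1 FPKM. The 12 highest members held 86.5% of the summed mean level, and the 3 Kcnc genes alone held 42.0%. The 4 below 0.1 FPKM were Kcna7, Kcna10, Kcng3 and Kcnv2, and only the other 32 entered the tests. The median tested member stood at percentile 40.0 of the 17630 entries with a mean of 0.1 FPKM or more, below the middle of all entries tested.

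**Figure D1:**
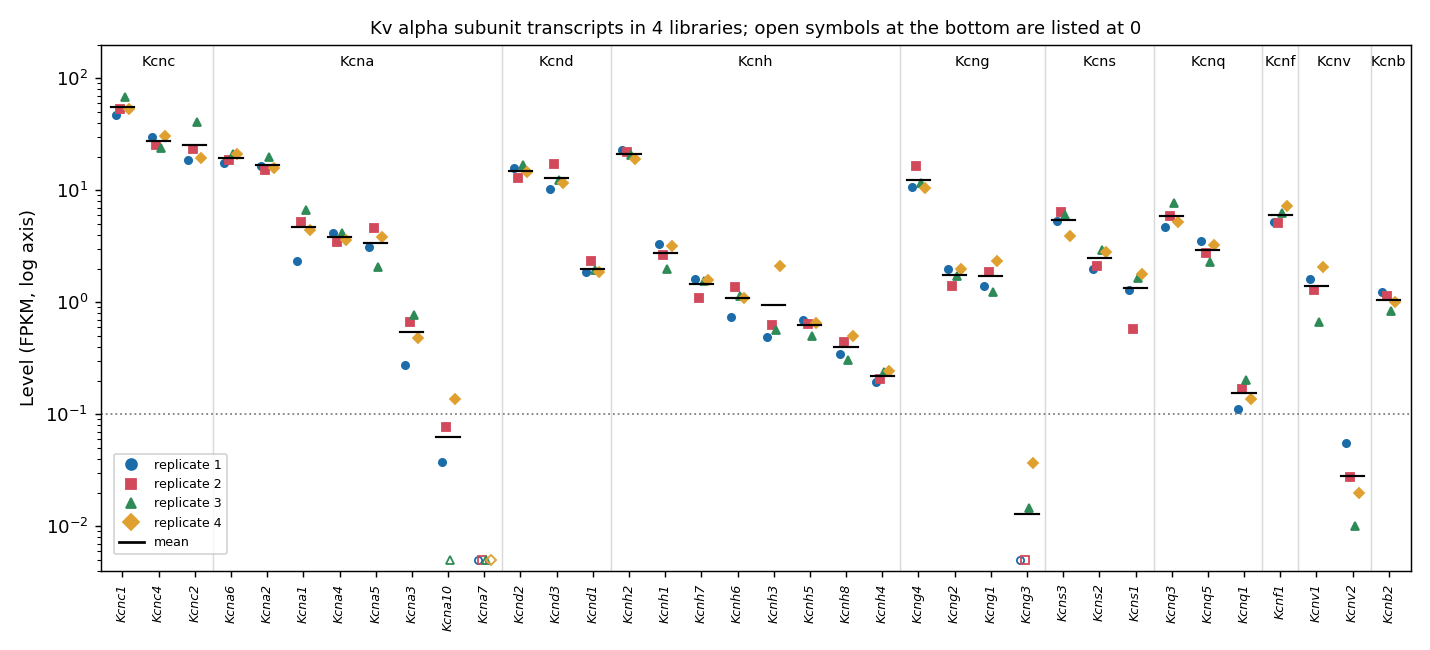
Level of each of the 36 Kv alpha subunit genes (FPKM, log axis) in the 4 libraries (coloured symbols) with the mean (black line), grouped by family, and a dotted line at the 0.1 FPKM needed for testing. Kcnc1 stands highest at a mean of 55.6 FPKM, and Kcna7 is listed at 0 in all 4 libraries.

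In the order of mean levels most neighbours did not separate. Of the 35 pairs of neighbours, 8 kept their order in 4 of 4 libraries, and in 3 of these the values of the 2 genes did not overlap. These 3 steps fell between Kcnc1 and Kcnc4, between Kcng4 and Kcnf1, and between Kcnh8 and Kcnh4. From Kcnc4 down to Kcng4, 8 members formed one descending run in which each gene overlapped the next.

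Summed over the listed members, the Kcnc family came first. The 3 Kcnc genes summed to 96.2, 102, 132 and 104 FPKM in replicates 1 to 4, or 41.8% ± 2.73 (SD, n = 4) of the members' total, and the 8 Kcna genes to 44.0, 47.9, 54.9 and 49.3 FPKM, or 19.0% ± 0.476. The lowest Kcnc sum was above the highest Kcna sum, and replicate 3 was highest for both. The 3 Kcnd genes averaged 29.8 ± 2.28 FPKM and the 8 Kcnh genes 28.6 ± 1.35 FPKM, and the Kcnd sum was the higher of the pair in 2 of 4 libraries, so their order was not resolved. The 4 Kcng genes followed at 15.8 ± 2.57 FPKM. The 3 Kcns genes at 9.20 ± 0.937 FPKM and the 3 Kcnq genes at 9.00 ± 0.839 FPKM again overlapped. Kcnf1 stood at 5.97 ± 0.970 FPKM, the 2 Kcnv genes at 1.44 ± 0.601 FPKM and Kcnb2 at 1.06 ± 0.171 FPKM. The 10 genes of the Kcnf, Kcng, Kcns and Kcnv families together held 12.6% of the total, against 0.414% ± 0.0959 for Kcnb2, their listed assembly partner. Family sums are given as a description and were not tested; the smallest two-sided p of an exact sign-flip test over 4 libraries is 0.125.

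**Figure D2:**
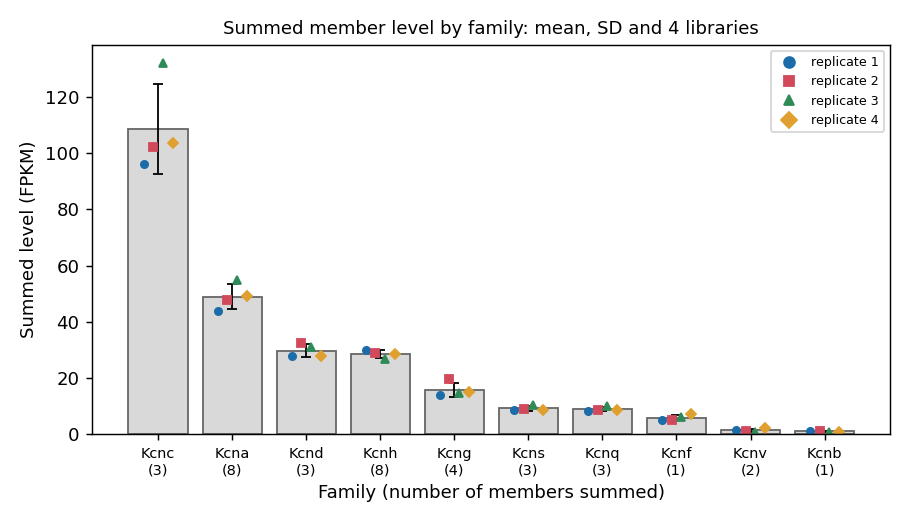
Summed level (FPKM, linear axis from 0) of the listed members of each family, with the number of genes summed in brackets. Bars are means, error bars SD over 4 libraries, and symbols single libraries; the Kcnc sum is 96.2 to 132 FPKM and the Kcna sum 44.0 to 54.9 FPKM.

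The Kcnc genes encode channels that open only at strong depolarisation and close fast, which lets neurons fire at high rates. Kcnc1 (ENSMUSG00000058975, GRCm38 chromosome 7, 46396497 to 46438704) was at 47.5, 53.5, 67.5 and 53.8 FPKM in replicates 1 to 4. It was the highest member in each of the 4 libraries and stood at percentile 92.9 of all entries tested. Kcnc4, whose channels inactivate, was at 30.03, 25.3, 23.8 and 30.4 FPKM. Kcnc2 was at 18.6, 23.2, 40.8 and 19.5 FPKM, so that it was the higher of this pair in replicate 3 and the lower in the other libraries.

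Both paralogs lay below Kcnc1 within libraries. Kcnc4 differed from Kcnc1 by -1.02 on the log2(FPKM + 0.1) scale (SE 0.17, limma adjusted p = 0.00246) and Kcnc2 by -1.18 (SE 0.15, limma adjusted p = 0.000861), each lower in 4 of 4 libraries. That scale understates differences of genes near 0.1 FPKM. Since 90.6% of all 17629 entries compared were called lower than Kcnc1 and 5.39% higher, 2 of 2 lower paralogs is not particular to the family. The ratio of Kcnc2 to Kcnc1 was 0.604 in replicate 3, against 0.391, 0.434 and 0.364 in replicates 1, 2 and 4, and the ratio of Kcnc4 to Kcnc1 was lowest in replicate 3, at 0.352 against 0.473 to 0.632 elsewhere. Replicate 3 is the library in which 5 of the 6 thalamus markers were highest. Prkcd, a kinase gene of sensory thalamus, was at 172 FPKM there and at no more than 13.4 FPKM in any other library. Of the 7 oligodendrocyte markers, 6 were also highest in replicate 3. So was Pvalb, at 80.8 FPKM against 51.6 to 77.2 FPKM elsewhere, while the other 3 of the 4 GABAergic and parvalbumin neuron markers were highest in replicate 2. The part of these cells and tissues in these ratios was not tested. In such bulk tissue fewer cells of a type and less RNA per cell cannot be told apart.

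The Kcna genes encode low-threshold channels concentrated on axons, at the initial segment and beside the nodes of myelinated fibres. Kcna6 was at 17.7, 18.5, 21.2 and 21.03 FPKM in replicates 1 to 4, and Kcna2, the family's common axonal subunit, at 16.4, 15.3, 19.97 and 15.8 FPKM. Kcna6 was above Kcna2 in each library, although the 2 ranges overlapped. Kcna1, which often pairs with Kcna2, was at 2.32, 5.23, 6.71 and 4.41 FPKM. Replicate 1 was the lowest of the 4 for Kcna1, and all 7 oligodendrocyte markers were also lowest in replicate 1, summing to 5800 FPKM against 6696 to 8412 FPKM in the other libraries. Of the 5 partners of Kcna channels on axons and at synapses, 2 were lowest and 1 highest in replicate 1, and their sum was 89.0 FPKM there against 92.4 to 100.3 FPKM elsewhere. All 4 GABAergic and parvalbumin neuron markers were lowest in replicate 1 too, summing to 238 FPKM against 281 to 338 FPKM elsewhere. Of the 3 markers of myelinated fast neurons, none was lowest in replicate 1 and all 3 were lowest in replicate 4. Highest in replicate 1 were 4 of the 5 parasubthalamic nucleus markers, summing to 468 FPKM against 294 to 410 FPKM elsewhere. So were 2 of the 3 subthalamic nucleus markers and all 5 spinal cord and hindbrain markers. The part of these cells and tissues and of myelinated fibres in the Kcna1 value was not tested.

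Kcna4, an A-type subunit that inactivates fast, lay between 3.47 and 4.15 FPKM, and Kcna5, best known from atrial heart muscle, between 2.07 and 4.57 FPKM. Kcna3, known from T cells and microglia, was lower at 0.277, 0.672, 0.765 and 0.478 FPKM. Replicate 1 was its lowest library, and 4 of the 6 microglia markers were also lowest there. Microglia markers summed to 111 FPKM in replicate 1, against 119 to 134 FPKM elsewhere. Kcna3 was highest in replicate 3, while all 6 microglia markers were highest in replicate 2. All 7 oligodendrocyte markers were lowest in replicate 1, and 6 of the 7 were highest in replicate 3. The parasubthalamic, subthalamic and spinal cord and hindbrain markers counted above were highest in replicate 1. The Kcna3 values rest on about 11 to 28 fragments per library, and the part of these cells and tissues in them was not tested. Kcna10 was at 0.0377, 0.0765, 0 and 0.136 FPKM, the last of which corresponds to about 5 fragments, and Kcna7, known from muscle, was listed at 0 in all 4 libraries, where 1 fragment would be 0.0221 to 0.0237 FPKM.

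Of the 8 Kcna genes, 6 lie in 2 clusters, whose members did not all have like levels. On chromosome 3 (GRCm38) Kcna3 lies at 107036169 to 107038070, Kcna2 at 107101146 to 107115005 and Kcna10 at 107183056 to 107195721, and only Kcna2 reached 1 FPKM in any library. On chromosome 6 Kcna5 lies at 126532551 to 126535412, Kcna1 at 126640397 to 126646384 and Kcna6 at 126708329 to 126740674, and Kcna6 was above both neighbours in each library, while the ranges of Kcna5 and Kcna1 overlapped.

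In limma, 4 of the 5 Kcna members tested were lower than Kcna2 and none was higher. The median difference of the 5 was -2.10, against -1.77 over all entries. Of all entries, 71.5% were called lower than Kcna2 and 19.2% higher, so 4 of 5 is near the background. Kcna1 was the nearest of the called genes at -1.92 (SE 0.24, limma adjusted p = 0.00102) and Kcna3 the farthest at -4.77 (SE 0.21, limma adjusted p = 2.36e-05), both lower in 4 of 4 libraries. Kcna6 did not pass at 0.22 (SE 0.09, limma adjusted p = 0.0735), though it was higher in 4 of 4 libraries. Without replicate 3 it passed as higher, at 0.27. On values multiplied back by transcript length, which rank genes roughly by fragments, it was lower at -0.77.

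Of the 3 cytoplasmic Kv beta subunits, which bind Kcna channels and carry them to axons, 2 were higher than Kcna2 and 1 was not called, where 19.2% of all entries were called higher and 71.5% lower. Their median difference was 0.76, against -1.77 over all entries. Kcnab2 was at 64.0, 70.2, 84.6 and 63.3 FPKM in replicates 1 to 4, 2.06 log2 units above Kcna2 (SE 0.08, limma adjusted p = 1.88e-05). Kcnab3 was at 23.3, 26.9, 40.8 and 25.9 FPKM and 0.76 above it (SE 0.11, limma adjusted p = 0.00182), each higher in 4 of 4 libraries. Kcnab1 averaged 18.5 ± 2.39 FPKM and did not pass at 0.13 (SE 0.10, limma adjusted p = 0.270). All 3 Kv beta genes were highest in replicate 3. On values multiplied back by length, Kcnab1 and Kcnab3 lay below Kcna2, at -1.27 and -1.42. Among the 5 axonal and synaptic partners, the adhesion gene Cntn2 and the scaffold gene Dlg2 were the highest at 25.7 ± 3.02 and 20.3 ± 1.70 FPKM, and the lowest, Cntnap2, which holds Kcna channels beside the node, was at 13.4 ± 1.28 FPKM (SD, n = 4).

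The Kcnd genes encode the A-type channels of cell bodies and dendrites, which delay the next spike. Kcnd2 was at 15.7, 13.01, 16.7 and 14.6 FPKM in replicates 1 to 4, and Kcnd3, the main A-type subunit of midbrain dopamine neurons, at 10.3, 17.1, 12.4 and 11.5 FPKM. The ratio of Kcnd3 to Kcnd2 was 1.31 in replicate 2, against 0.656, 0.742 and 0.791 in replicates 1, 3 and 4, so the order of the pair turned in replicate 2. In that library all 6 midbrain dopamine markers were highest, with tyrosine hydroxylase (Th), which makes the dopamine precursor, at 223 FPKM there and 103 to 118 FPKM in the others. All 5 medial hypothalamus markers, with the sums given above, and all 6 microglia markers, at a sum of 134 FPKM against 111 to 122 FPKM, were also highest in replicate 2. The part of these cells in the turn was not tested. Kcnd1 was far lower, at 1.85 to 2.32 FPKM, and was also highest in replicate 2.

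Kcnd3 against Kcnd2 did not pass in limma, at -0.24 (SE 0.19, limma adjusted p = 0.269), and was lower in 3 of 4 libraries. Without replicate 2 it passed as lower, at -0.46. Kcnd1 was lower at -2.85 (SE 0.13, limma adjusted p = 2.76e-05) and in 4 of 4 libraries. Of all entries, 69.2% were called lower than Kcnd2 in limma and 21.7% higher. Of the 6 genes for KChIP and DPP proteins, which bind Kcnd channels and set their gating and number at the surface, 4 were higher than Kcnd2 and 2 lower, with a median difference of 0.87 against -1.60 over all entries. Dpp6 was the highest at 85.2 ± 3.60 FPKM (SD, n = 4), 2.50 above Kcnd2 (SE 0.11, limma adjusted p = 2.24e-05). Kcnip4 was at 34.4, 38.1, 44.3 and 36.8 FPKM, 1.35 above (SE 0.10, limma adjusted p = 0.000113). Kcnip1 and Kcnip3 averaged 28.0 and 27.0 FPKM. The other two auxiliaries were lower than Kcnd2 in 4 of 4 libraries, Dpp10 at -0.69 (SE 0.10, limma adjusted p = 0.00195) and Kcnip2 at -0.91 (SE 0.26, limma adjusted p = 0.0221). Kcnip2 no longer passed without replicate 1, at -0.85. On values multiplied back by length Dpp10 lay above Kcnd2 at 0.87, Kcnip3 stood at -0.07 without passing, and Kcnip4 no longer passed, at 0.25.

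**Figure D3:**
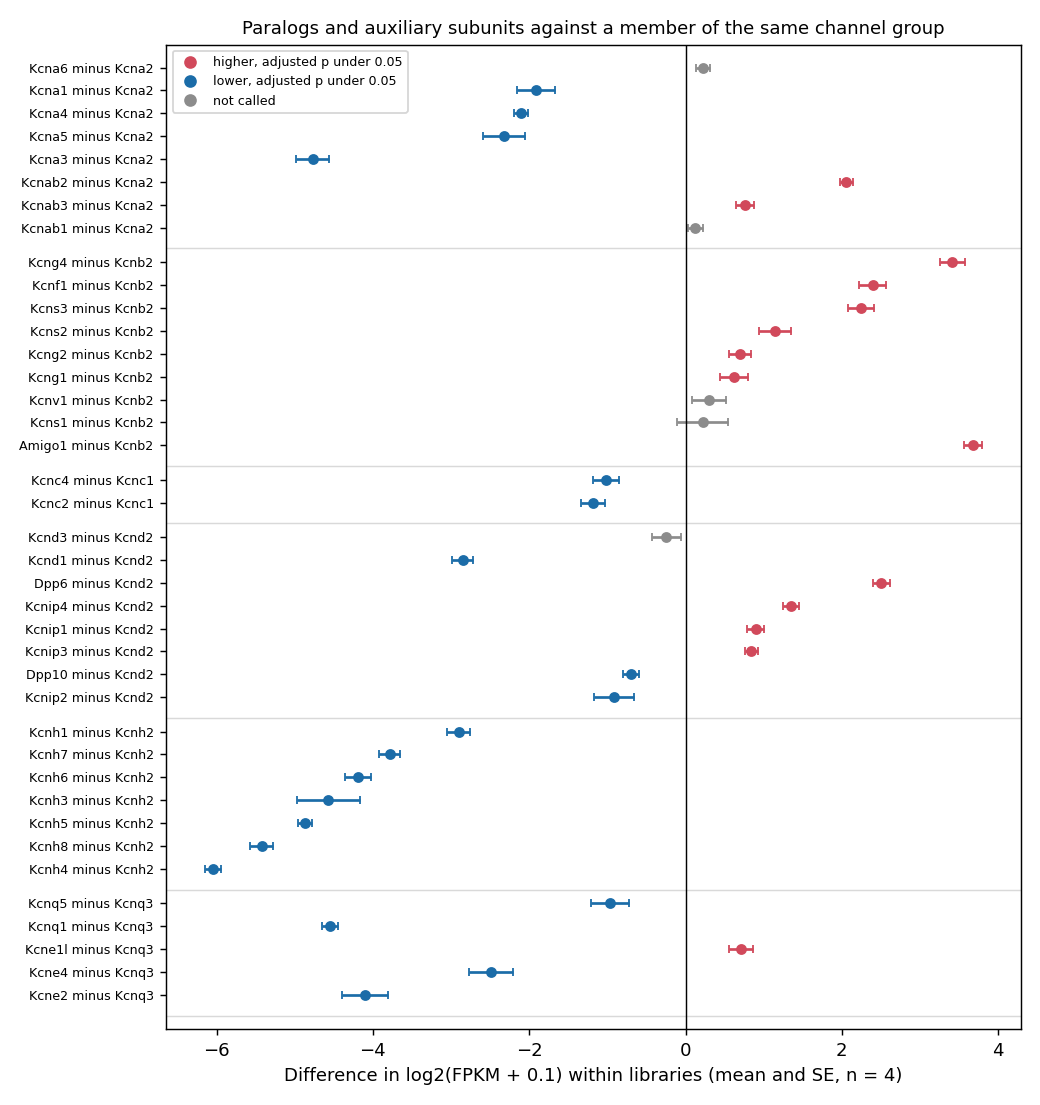
Difference of each paralog or auxiliary gene from the named member of its channel group, in log2(FPKM + 0.1) within libraries (points are means, bars SE, n = 4). Red points were called higher, blue points lower and grey points neither; Amigo1 lies 3.68 above Kcnb2, and Kcnh4 differs from Kcnh2 by -6.04.

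One gene carried most of the Kcnh family, which holds the EAG, ERG and ELK channels. Kcnh2, an ERG channel best known for repolarising heart muscle, was at 22.7, 22.0, 20.6 and 19.1 FPKM in replicates 1 to 4, the fourth highest of all members by mean level. Its SD on the log2 scale, 0.110, was the smallest among the 26 members with a mean of 1 FPKM or more. The EAG gene Kcnh1 was at 3.30, 2.67, 1.98 and 3.16 FPKM, and the other EAG gene, Kcnh5, between 0.504 and 0.700 FPKM. The further ERG genes were Kcnh7 at 1.08 to 1.62 FPKM and Kcnh6 at 0.740 to 1.38 FPKM. Lowest of the family were the ELK genes Kcnh8, at 0.307 to 0.503 FPKM, and Kcnh4, at 0.195 to 0.243 FPKM or about 16 to 19 fragments.

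All 7 other Kcnh genes were called lower than Kcnh2 in limma, against 77.5% of all entries called lower and 16.3% called higher, and each was lower in 4 of 4 libraries. The median difference of the 7 was -4.57, against -2.09 over all entries. The nearest was Kcnh1 at -2.90 (SE 0.14, limma adjusted p = 2.23e-05) and the farthest Kcnh4 at -6.04 (SE 0.10, limma adjusted p = 2.66e-06), a 65.9-fold difference. The third ELK gene, Kcnh3, was at 0.493, 0.625, 0.564 and 2.11 FPKM, with replicate 4 far above the others at about 154 fragments against 38 to 47. Kcnh3 shares exon sequence with Mcrs1 on the opposite strand, and since the use of strand in counting is not given in the sources used here their reads may not be told apart; Mcrs1 was at 21.1 FPKM in replicate 4 and at 18.1 to 23.9 FPKM elsewhere. The 4 cortex and hippocampus markers, forebrain regions known for Kcnh3, summed to 6.08 FPKM in replicate 4 and to 6.17 to 6.29 FPKM elsewhere. Of these 4, Emx1 alone was highest in replicate 4, at 0.577 FPKM against 0.0299 to 0.184 FPKM elsewhere. In replicate 4, 3 of the 4 choroid plexus and ependyma markers were highest, summing to 58.6 FPKM against 7.48 to 9.08 FPKM elsewhere, of which Ttr made 49.7 FPKM. The 4 lateral hypothalamus markers summed to 760 FPKM there, against 173 to 531 FPKM elsewhere. The part of these tissues in the Kcnh3 value was not tested.

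The Kcnq genes encode the M-current channels, which muscarinic and peptide receptors close. Kcnq3 was at 4.71, 5.89, 7.74 and 5.23 FPKM in replicates 1 to 4 and Kcnq5 at 3.53, 2.77, 2.28 and 3.23 FPKM. The 2 ranges did not overlap, and the libraries ran in opposite directions, with replicate 3 highest for Kcnq3 and lowest for Kcnq5. The ratio of Kcnq5 to Kcnq3 was accordingly 0.295 in replicate 3, against 0.748, 0.470 and 0.618 in replicates 1, 2 and 4. Kcnq1, the subunit of heart and epithelia, was at 0.112 to 0.202 FPKM, or about 7 to 12 fragments. It shares exon sequence with the antisense gene Kcnq1ot1, which had no entry under that symbol in the expression tables.

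Both Kcnq genes were lower than Kcnq3 in 4 of 4 libraries, Kcnq5 at -0.97 (SE 0.25, limma adjusted p = 0.0166) and Kcnq1 at -4.55 (SE 0.10, limma adjusted p = 5.48e-05), where 46.2% of all entries were called lower and 39.5% higher. Kcnq5 no longer passed without replicate 2, at -0.94. Of the 5 single-span Kcne genes, whose proteins modulate Kcnq and other Kv channels, 3 were tested, and 1 was higher than Kcnq3 and 2 were lower. Kcne1l was the highest at 9.56 ± 0.653 FPKM (SD, n = 4), 0.71 above Kcnq3 (SE 0.15, limma adjusted p = 0.00821), but on values multiplied back by length it lay below, at -2.21. Kcne4 was at 0.891, 0.502, 2.24 and 0.771 FPKM and highest in replicate 3. Kcne1, the partner of Kcnq1 in the heart, was listed at 0 in all 4 libraries.

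Several subunits that do not form channels alone were more abundant than Kcnb2. Kcng4 was at 10.6, 16.4, 11.7 and 10.6 FPKM in replicates 1 to 4, with replicate 2 highest. Kcnd3 and the midbrain dopamine, medial hypothalamus and microglia markers given above were also highest in replicate 2. So were 3 of the 4 GABAergic and parvalbumin neuron markers and 2 of the 3 myelinated fast neuron markers. The part of these cells in the Kcng4 value was not tested. Kcnf1 was at 5.27, 5.15, 6.22 and 7.24 FPKM and Kcns3 at 5.31, 6.43, 5.96 and 3.92 FPKM, while Kcnb2, a delayed rectifier subunit, was at 1.24, 1.13, 0.838 and 1.01 FPKM. None of these 3 genes overlapped Kcnb2 in any library. Kcns2 was at 1.99, 2.10, 2.94 and 2.82 FPKM, also above every Kcnb2 value. Kcng2 lay between 1.40 and 1.99 FPKM and Kcng1 between 1.23 and 2.34 FPKM. Kcnv1 was at 1.63, 1.28, 0.665 and 2.07 FPKM and Kcns1 at 1.30, 0.584, 1.65 and 1.79 FPKM. They were the most variable genes of this group among those with a mean above 1 FPKM. Kcnv2, known from retinal photoreceptors, was between 0.0101 and 0.0560 FPKM, and Kcng3 was listed at 0 in replicates 1 and 2 and reached 0.0369 FPKM in replicate 4.

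Of the 10 such genes, 8 were tested, and 6 were higher than Kcnb2 and none lower, where 69.0% of all entries were called higher and 22.1% lower. The median difference of the 8 was 0.92, against 2.11 over all entries. Kcng4 was the farthest at 3.42 (SE 0.16, limma adjusted p = 1.80e-05), a 10.7-fold difference, and Kcng1 the nearest of those called at 0.62 (SE 0.18, limma adjusted p = 0.0217). Kcng1 did not pass without replicate 2 (0.60), 3 (0.66) or 4 (0.45). Kcnv1 at 0.30 (SE 0.22, limma adjusted p = 0.247) and Kcns1 at 0.22 (SE 0.33, limma adjusted p = 0.549) did not pass, each higher in 3 of 4 libraries. The Kcnb2 transcript is long, at 14.8 kb in its longest annotated form, and the count rests on the length correction: on values multiplied back by length 2 genes were higher, Kcng4 and Kcnf1, and 4 were lower, while Kcns2 stood at -0.23 and Kcns3 at 0.01 without passing. Amigo1, whose protein clusters with Kcnb channels, lay between 14.4 and 14.8 FPKM and was 3.68 above Kcnb2 (SE 0.11, limma adjusted p = 4.97e-06).

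Set against Kcna2 as a common measure, 4 of the 31 other members tested were higher, 24 lower and 3 not called. The share called lower was 77.4%, against the 71.5% of all entries given above, and the share called higher 12.9%, against 19.2%; the median difference was -2.58, against -1.77 over all entries. The higher genes were the 3 Kcnc genes and Kcnh2. Kcnc1 led at 1.71 (SE 0.09, limma adjusted p = 3.42e-05), followed by Kcnc4 at 0.70 (SE 0.14, limma adjusted p = 0.00689), Kcnc2 at 0.53 (SE 0.17, limma adjusted p = 0.0312) and Kcnh2 at 0.32 (SE 0.11, limma adjusted p = 0.0418), each higher in 4 of 4 libraries. Besides Kcna6, the genes not called were Kcnd2 at -0.17 (SE 0.08, limma adjusted p = 0.104) and Kcnd3 at -0.41 (SE 0.17, limma adjusted p = 0.0738). Kcng4 was called lower at -0.47 (SE 0.17, limma adjusted p = 0.0487), although it was lower in only 3 of 4 libraries. Kcnc2 did not pass without replicate 2 (0.50) or 4 (0.60), and Kcnh2 did not pass without replicate 1 (0.28), 2 (0.26) or 4 (0.34). Nor did Kcng4 pass without replicate 1 (-0.42), 3 (-0.37) or 4 (-0.43), while Kcnd3 passed as lower without replicate 2 (-0.60) and with a pseudocount of 1 (-0.39, limma adjusted p = 0.0445). Kcnd2 passed as lower without moderation across genes (limma adjusted p = 0.0428). On values multiplied back by length Kcnc1 alone was higher, and Kcnc2, Kcnc4 and Kcnh2 lay below Kcna2 at -0.67, -0.96 and -1.13, while Kcnd2 (-1.34) and Kcnd3 (-1.11) passed as lower.

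The median SD of log2(FPKM + 0.1) over the 4 libraries was 0.271 among the 26 members with a mean of 1 FPKM or more. Over all 13044 entries that reached the same mean it was 0.131. The members and these entries were not matched for level, and the difference in spread was not tested. Within the 26, replicate 3 held the highest value of 8 members, and replicates 1, 2 and 4 of 6 each, while replicate 1 held the lowest value of 9 members, replicates 2 and 3 of 7 each and replicate 4 of 3. Replicate 3 thus held the highest value of 8 members and the lowest of 7. The members highest in replicate 3 were Kcnc1, Kcnc2, Kcna6, Kcna2, Kcnd2, Kcnq3, Kcna1 and Kcns2. Those lowest there were Kcnc4, Kcna5, Kcnq5, Kcnh1, Kcng1, Kcnv1 and Kcnb2. In replicate 3 the thalamus and oligodendrocyte marker sums were highest, with the values given above. There 4 of the 5 parasubthalamic nucleus markers were lowest, summing to 294 FPKM against 330 to 468 FPKM elsewhere, and the lateral hypothalamus markers summed to 173 FPKM against 440 to 760 FPKM elsewhere. The part of these tissues in the members' values was not tested. The members' total was 288 FPKM in replicate 3, against 237, 257 and 252 FPKM in replicates 1, 2 and 4. The median of the 32 members tested differed from the mean of the remaining libraries by 0.10 log2 units in replicate 3, against -0.05 over all entries tested, and by -0.14 in replicate 1, against -0.00065 over all entries.

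**Figure D4:**
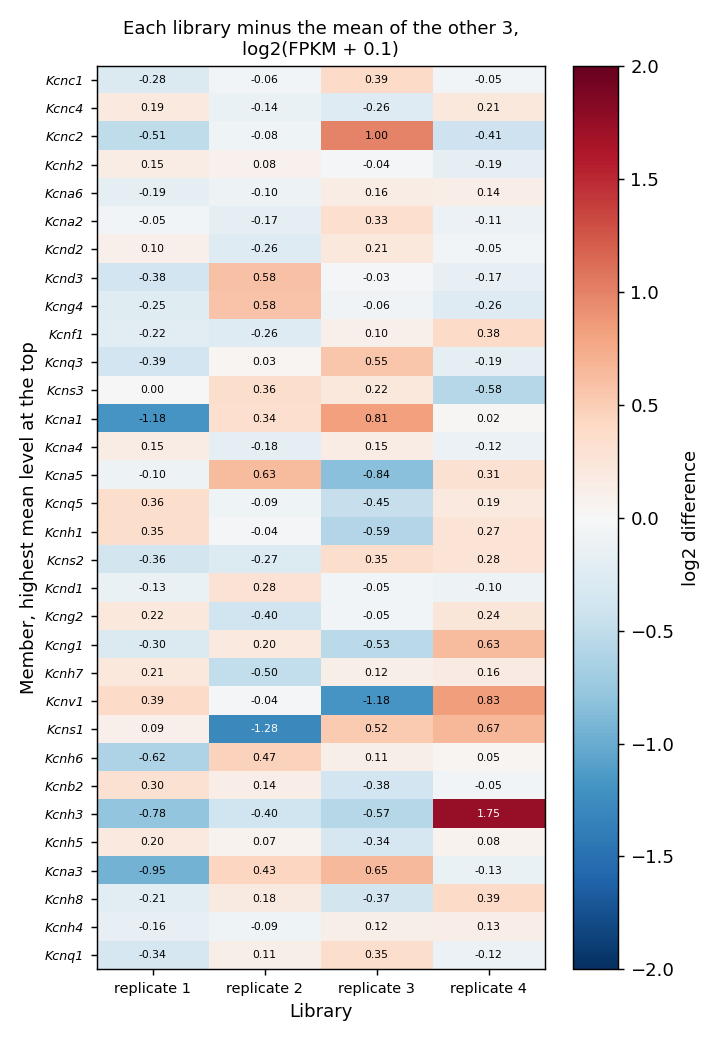
Each library minus the mean of the other 3 in log2(FPKM + 0.1) for the 32 members tested (rows, highest mean level at the top; colour and printed values in log2 units). Kcnc2 stands 1.00 above in replicate 3, Kcna1 is at -1.18 in replicate 1, Kcnd3 and Kcng4 are 0.58 above in replicate 2, and Kcnh3 is 1.75 above in replicate 4.

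Of the 36 members, 3 reached 1 FPKM and had a highest library at least 3 times the lowest. These were Kcnh3 at 4.28-fold, Kcnv1 at 3.11-fold and Kcns1 at 3.06-fold. For Kcnv1 the lowest library was replicate 3 and for Kcns1 replicate 2. Their values rest on about 56 to 179 and 32 to 95 fragments per library. Beyond Kcnh3 and Kcnq1, another 5 members share exon sequence with a gene on the opposite strand: Kcna6, Kcnd3, Kcng2, Kcnh7 and Kcnq5. Among these opposite genes Gca, which overlaps Kcnh7, was at 3.97 to 4.96 FPKM. Those at Kcna6, Kcnd3, Kcng2 and Kcnq5 had no entry under their symbols in the expression tables. The levels of these 5 members are uncertain to that degree.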

How the data were processed

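RNA was extracted with TRIzol and made into libraries with a dual-mode mRNA kit, per the labels' protocols. The build was GRCm38, per the submitters' processing notes. For the aligner, quantifier, annotation and strand setting the sources used here name none. Values deposited by the authors were read as FPKM from their behaviour, since no label or header names the unit: they are not whole, and their totals differ between libraries. The column of the third sample is headed with a letter C and was taken as replicate 3 from its title. In genes with a single transcript over 1 kb, value times length gathers at a common step, which gave the implied fragments; these are approximate, and no counting intervals were computed.

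The tables hold 25044 entries, 22036 with Ensembl identifiers, of which GENCODE M21 named 22022. The fits took the 17630 entries whose mean reached 0.1 FPKM. Within each library log2(FPKM + 0.1) of a member of the channel group was subtracted from that of each other entry. An intercept was fitted, two-sided, with variances moderated across entries through the prior of limma 3.58.1 in R 4.3.3. Benjamini-Hochberg adjustment covered 17629 entries, with a threshold of 0.05. Without moderation the fit was an ordinary t-test. Prior degrees of freedom were limited to the 1.63 of the entries' own levels, because all differences share the subtracted gene. The fit was tested on simulated data. Kcna2, Kcnb2, Kcnc1, Kcnd2, Kcnh2 and Kcnq3 were subtracted in turn.

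The members and lists were chosen with earlier results of these data known. Values per library are given for the 12 highest members, each family's highest member and any member reaching 1 FPKM with a 3-fold range; further values were chosen after they were seen. From each auxiliary list the 2 highest genes are named by rule, and others after their values were seen. Alternatives changed the pseudocount, filter, prior and length correction or left out a library. Levels were handled in Python 3.11.15 with pandas 2.3.3 and numpy 2.4.6, coding stretches with Biopython 1.88, and plots with matplotlib 3.10.9. The coding stretch of 1 family is not reported here.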

Additional observations from a re-analysis of the deposited data

Results flagged for a closer look

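Among 62 values examined in the 4 libraries (members, family sums and auxiliary genes), 5 had 1 library set apart by Dixon's gap-to-range ratio and chance alone sets apart about 5% of groups of 4. Kcnh3 was at 2.11 FPKM in replicate 4, above the other 3 libraries. In replicate 2, Kcnd1 was at 2.32 FPKM and the Kcng genes summed to 19.6 FPKM, both high, while Kcnh7 was at 1.08 FPKM, low. Kcne3 was at 0.0977 FPKM in replicate 1 and listed at 0 in the other libraries. With the rest at 0 the ratio is 1.0 whatever the remaining value, so this flag was fixed in advance. The mean of Kcne3, 0.0244 FPKM, was also below the 0.1 FPKM needed for testing.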

How the results depend on the processing

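Directions and calls held in most settings, and length correction was the choice they depended on most. Of the counts recomputed under other settings, 222 stayed within 1.5 times and 20 did not. Several of these counts were 0 under both settings or covered a single gene, which left little room for change. Of the family shares recomputed, 44 stayed within their SD over libraries and 16 did not. On values multiplied back by length, Kcna6 (-0.77), Kcnab1 (-1.27), Kcnab3 (-1.42), Kcnc2 (-0.67), Kcnc4 (-0.96) and Kcnh2 (-1.13) turned to below Kcna2. Kcng1 (-1.18), Kcng2 (-1.63), Kcns1 (-2.19), Kcns2 (-0.23) and Kcnv1 (-1.42) turned to below Kcnb2, Kcnip3 (-0.067) to below and Dpp10 (0.87) to above Kcnd2, and Kcne1l (-2.21) to below Kcnq3. There 1 Kv beta gene was higher and 2 were lower than Kcna2, 1 member was higher than Kcna2, 2 of the silent-family genes were higher and 4 lower than Kcnb2, 1 KChIP or DPP gene was lower than Kcnd2, and 0 Kcne genes were higher than Kcnq3. Shares of the total on that scale were 22.8% for Kcna, 1.01% for Kcnb, 1.83% for Kcnf, 3.77% for Kcng, 9.04% for Kcnh, 5.76% for Kcnq and 2.09% for Kcns. With the highest member in place of the sum, shares were 13.6% for Kcna, 0.740% for Kcnb, 38.4% for Kcnc, 4.15% for Kcnf, 8.53% for Kcng, 14.7% for Kcnh, 4.05% for Kcnq, 3.74% for Kcns and 1.00% for Kcnv. With only genes at a mean of 1 FPKM or more, fewer were tested, and 3 Kcnh genes were lower than Kcnh2, 1 Kcnq gene and 1 Kcne gene lower than Kcnq3. With no filter, 2 silent-family genes were lower than Kcnb2. Without moderation across genes, 2 members were higher than Kcna2, 1 KChIP or DPP gene lower than Kcnd2 and 1 Kcnq gene lower than Kcnq3; the cause was not tested. Kcng4 against Kcna2 did not pass with a pseudocount of 0.01 (limma adjusted p = 0.0559), nor did Kcnh2 with no limit on the prior (limma adjusted p = 0.0511). Leaving out each library in turn gave 2 to 5 members higher than Kcna2, 0 to 1 of them Kcna genes, 1 to 2 Kcnd genes and 1 to 2 KChIP or DPP genes lower than Kcnd2, and 1 to 2 Kcnq genes lower than Kcnq3. Levels of members under 1 FPKM rest on few fragments. No paired analysis was possible because the series has 1 group, so no replicate number is shared between groups; the differences between genes were already taken within libraries.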
